A study of Homo sapiens with 16 samples.

Results

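The early response to 5-fluorouracil (5-FU) of SW620 cells with ATF4 knocked down was read from RNA sequencing counts, by setting all 3 shATF4 libraries taken after 24 h in 5 µM 5-FU against all 3 untreated shATF4 libraries. These 6 libraries, out of 16 in the series, were chosen by their column names, and every gene that passed a filter on low counts was kept. SW620 is a human colorectal cancer cell line. 5-FU is a pyrimidine analogue used as chemotherapy. The shATF4 line expresses a hairpin RNA that targets ATF4, a transcription factor, in the untreated libraries as well as the treated ones. A second line with a scrambled hairpin gave 3 untreated libraries and 3 after 24 h in 5 µM 5-FU, and each line has 2 further libraries titled as 48 h in 5 µM 5-FU, of which those of shATF4 are used below. The treatment tag of the 48 h libraries reads 24 h, and they were placed by their titles. A single hairpin line and a single control line were used, so loss of ATF4 cannot be told apart from other differences between the lines. The labels give the untreated libraries no time, so time in culture cannot be told apart from the drug. Whether replicates came from separate cultures is not said in the labels, and p-values speak to the spread among these libraries alone, which may be technical.

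In cells, 5-FU is converted to nucleotides that block thymidylate synthase, starving DNA replication of thymidine, and that are also built into RNA, where they disturb ribosome assembly and RNA processing. ATF4 is the effector of the integrated stress response: when kinases phosphorylate the translation factor eIF2, bulk translation falls while ATF4 protein is made, and ATF4 then switches on genes for amino acid synthesis and uptake, tRNA charging and redox balance. Cells that damage or starve their genome in this way typically stop dividing, and epithelial tumour cells often make inflammatory signals as they do so.

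ATF4 itself (ENSG00000128272, chromosome 22, 39519695 to 39522685, plus strand, GRCh38, as are all gene positions from the authors' table) was measured at 172, 169 and 179 CPM (the read count scaled to a common library size) in the untreated shATF4 libraries and at 91.1, 109 and 130.4 CPM after 24 h. The scramble libraries stood at 388, 364 and 384 CPM untreated and 270.1, 285 and 280.1 CPM at 24 h, above every shATF4 library. Within shATF4 cells the residual ATF4 transcript fell 1.57-fold (log2 change -0.65 ± 0.09, where ± is the standard error here and for every log2 change below, 3 against 3 libraries; adjusted p = 4.07e-06). Every adjusted p given here is a Benjamini-Hochberg value from edgeR's quasi-likelihood test over all 17309 genes tested, and a gene was called, or said to have risen or fallen, at an adjusted p under 0.05. The change in ATF4 did not pass as different from that in scramble cells (difference -0.21 ± 0.12, adjusted p = 0.374).

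Of 17309 genes tested, 7687 were called at 24 h, which is 44.4% of them, with 23.2% called higher (4018 genes) and 21.2% called lower (3669 genes). A change of at least 2-fold was more often a rise: 1443 called genes rose and 413 fell by that much. The median log2 change over all genes was 0.03. In the authors' deposited table of the same comparison 5727 of 26779 genes had an adjusted p under 0.05, and 5690 of these were called here, all in the same direction. A gene can pass the count filter through the treated libraries alone, so counts over members of a list that passed describe those members only. Counts per library ran from 14571611 to 17824188 over the 6 libraries. The third 24 h library stood apart from the other two: the signal recognition particle RNA genes RN7SL took 0.0726% of its counts against 0.0241% and 0.0251%. All 3 lay above the untreated shATF4 libraries (0.00555% to 0.0107%) and the scramble 24 h libraries (0.00522% to 0.00713%), so this share moved with the treated shATF4 group, and its part in the results was not tested. In the third library short genes were also higher relative to long ones, as described with the ribosomal proteins. Colon epithelial markers (EPCAM, CDH1, the simple keratins, VIL1 and others) summed to 11190 to 11760 CPM untreated and 10170 to 10840 CPM at 24 h, with none of 11 at 0. Markers of other cell types were low: fibroblast markers summed to 36.4 to 38.4 CPM untreated and 56.6 to 60.5 CPM at 24 h with COL1A2, COL3A1 and DCN at 0, leukocyte markers to 4.01 to 5.37 and 10.2 to 16.3 CPM with PTPRC and HBB among those at 0, and endothelial markers to 3.67 to 5.12 and 8.05 to 10.6 CPM with KDR and TEK at 0. The part of such cells in the rises below was not tested.

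**Figure D1:**
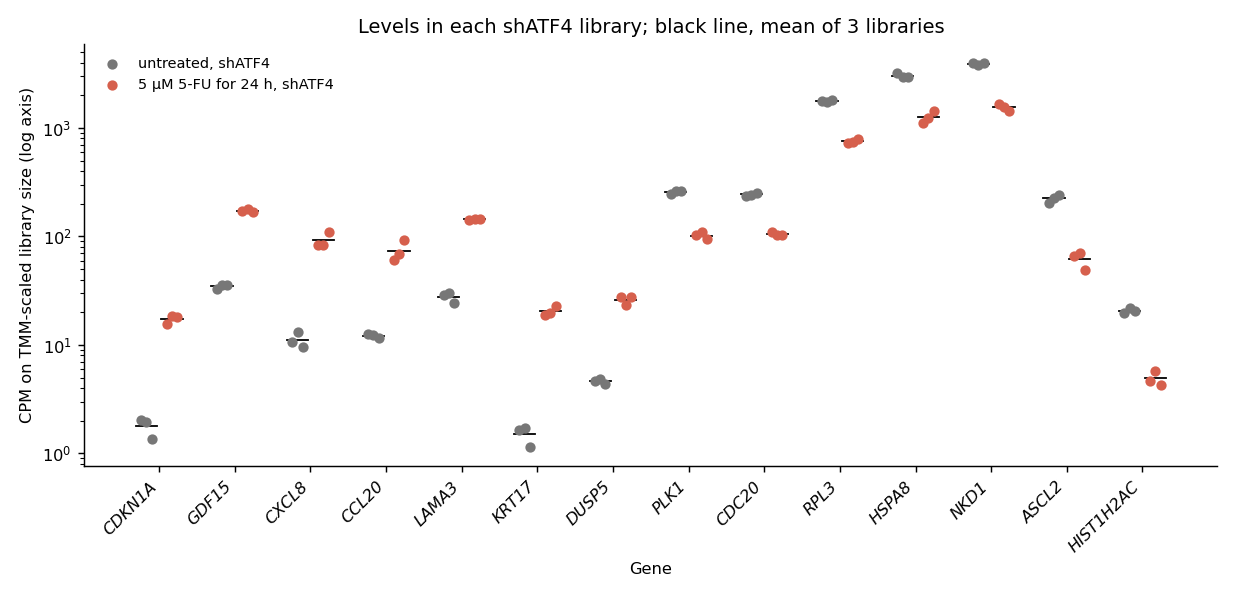
CPM on TMM-scaled library size (log axis) of 14 genes in each untreated (grey) and 24 h 5-FU (red) library of shATF4 cells; each point is a library and each black line the mean of 3. For every gene drawn, the 24 h points lie wholly above or wholly below the untreated ones, as for CDKN1A (2.05, 1.94 and 1.36 CPM untreated and 15.7, 18.4 and 18.3 CPM at 24 h).

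The cell cycle inhibitor p21, encoded by CDKN1A (chromosome 6, 36676460 to 36687339, plus strand), was among the strongest responders. It stood at 2.05, 1.94 and 1.36 CPM untreated and 15.7, 18.4 and 18.3 CPM at 24 h. All treated libraries lay far above all untreated ones, a 9.72-fold rise (3.28 ± 0.19, adjusted p = 5.04e-11). Its relative CDKN2B, the p15 inhibitor of CDK4 and CDK6, went from 19.9, 15.3 and 17.5 to 50.8, 41.3 and 44.2 CPM without overlap and rose 2.58-fold (1.37 ± 0.10, adjusted p = 1.35e-09). CDKN1C (p57, 0.73 ± 0.15, adjusted p = 0.000576) and CDKN2D (p19, 0.65 ± 0.15, adjusted p = 0.0015) rose less. The inhibitor p27, CDKN1B, fell (-0.31 ± 0.08, adjusted p = 0.00441), as did the mitotic phosphatase CDKN3 (-0.42 ± 0.11, adjusted p = 0.00325). Of 8 CDK inhibitor genes tested, 5 were called higher and 2 lower, with a median log2 change of 0.47.

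Of the 24 tested genes on a list of those known to answer DNA damage and cell stress, 14 rose and 2 fell (median 0.41), and the genes named next include both that fell. GDF15, a secreted stress hormone and a target of the integrated stress response, stood at 32.9, 35.7 and 36.0 CPM untreated and 171, 180.4 and 168 CPM at 24 h. Treated and untreated libraries were widely separated, and GDF15 rose 4.97-fold (2.31 ± 0.08, adjusted p = 2.41e-14). PLK2, a stress-induced Polo-like kinase, rose 2.33-fold (1.22 ± 0.10, adjusted p = 7.57e-09). The ubiquitin ligase gene MDM2 did not pass, with 68.03, 66.7 and 62.8 CPM untreated and 66.4, 62.1 and 55.2 CPM at 24 h (-0.11 ± 0.11, adjusted p = 0.457), and its groups overlapped. RRM2B, a damage-inducible subunit of ribonucleotide reductase, also did not pass (-0.21 ± 0.11, adjusted p = 0.137), although it was called lower, at -0.26, without the third 24 h library and scramble untreated replicate 2 (adjusted p = 0.0374). The repair factor XPC (-0.37 ± 0.08, adjusted p = 0.000842) and cyclin G1, CCNG1 (-0.43 ± 0.09, adjusted p = 0.000366), fell.

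Genes of the BCL2 family set the threshold for apoptosis, and 10 of 16 tested rose while 1 fell (median 0.37). The BH3-only death genes PMAIP1 (NOXA) and BBC3 (PUMA) rose, PMAIP1 from 14.8, 13.9 and 11.5 to 33.4, 32.5 and 32.1 CPM (1.28 ± 0.10, adjusted p = 2.37e-09) and BBC3 from 0.888, 0.899 and 1.43 to 2.18, 2.07 and 2.62 CPM (1.10 ± 0.29, adjusted p = 0.00436). BAD, a further BH3-only gene, rose 2.04-fold and the pore former BAK1 rose less (1.03 ± 0.12, adjusted p = 5.34e-07, and 0.61 ± 0.10, adjusted p = 8.31e-05). On the survival side BCL2L1, which encodes BCL-XL, rose 1.32-fold (0.40 ± 0.06, adjusted p = 9.21e-06), whereas MCL1 did not pass (0.10 ± 0.06, adjusted p = 0.166), except without the third 24 h library (0.16, adjusted p = 0.0216). BCL2L11 (BIM), also a death gene, fell (-0.43 ± 0.11, adjusted p = 0.00329).

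The ligands and receptors of the tumour necrosis factor (TNF) superfamily that passed the count filter, 17 of 20 listed, were each called higher, against 23.2% of all genes. Their log2 changes ranged from 0.36 to 2.92 (median 0.91), and LTA, TNFRSF10C and CD40 were below the filter. Among the ligands LTB, lymphotoxin beta, stood at 1.64, 2.84 and 2.29 CPM untreated and 7.24, 10.4 and 11.9 CPM at 24 h and rose 4.36-fold (2.13 ± 0.20, adjusted p = 3.27e-08). TNFSF15 rose 3.44-fold (1.78 ± 0.17, adjusted p = 4.02e-08). TNF itself was scarce, at 0.342, 0.277 and 0 CPM untreated and 0.811, 1.52 and 0.757 CPM at 24 h, and rose (2.24 ± 0.59, adjusted p = 0.00399). Among the receptors the death receptor FAS rose 3.43-fold from 1.23, 0.83 and 0.716 to 3.37, 2.76 and 3.44 CPM (1.78 ± 0.30, adjusted p = 7e-05), the TNF receptor 2 gene TNFRSF1B 1.88-fold from a far higher level (0.91 ± 0.07, adjusted p = 3.8e-09), and the TRAIL decoy receptor TNFRSF10D 1.85-fold (0.88 ± 0.08, adjusted p = 4.35e-08). In the scramble line 14 of the 17 were called, each higher, where 21.8% of all genes were called higher and 22.2% lower.

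NF-κB is a transcription factor family that many receptors of this superfamily can activate, and the genes of its own subunits and inhibitors are among its targets. Of 15 tested, 11 rose and 1 fell (median 0.58). NFKB2, the precursor of p52 in the non-canonical pathway, went from 19.5, 23.7 and 26.3 to 60.8, 67.5 and 67.4 CPM without overlap (1.49 ± 0.10, adjusted p = 3.64e-10). Its partner RELB (1.40 ± 0.15, adjusted p = 2.6e-07), the atypical inhibitor BCL3 (1.81 ± 0.17, adjusted p = 3.81e-08), the deubiquitinating brake TNFAIP3 or A20 (1.10 ± 0.09, adjusted p = 9.92e-09) and the IκBα gene NFKBIA (0.58 ± 0.08, adjusted p = 4.86e-06) rose as well. NFKB1, the precursor of the canonical p50 subunit, went the other way, from 62.8, 60.04 and 60.4 to 51.9, 53.1 and 49.8 CPM (-0.24 ± 0.07, adjusted p = 0.00887).

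Chemokine and cytokine genes had the largest median of the inflammatory lists, 1.76, with 19 of 21 tested called higher and 1 lower (range from -0.52 to 4.23). A further 8 of the 29 listed were below the filter. CXCL8, which encodes the neutrophil attractant interleukin 8, stood at 10.7, 13.1 and 9.59 CPM untreated and 84.2, 83.97 and 109.7 CPM at 24 h. Every treated library was far above every untreated one, and the fitted rise was 8.34-fold (3.06 ± 0.16, adjusted p = 1.53e-11). CCL20, which attracts CCR6-bearing lymphocytes, rose 6.07-fold from 12.6, 12.2 and 11.7 to 61.1, 69.1 and 91.8 CPM (2.60 ± 0.13, adjusted p = 6.18e-12). The neutrophil attractants CXCL1 (1.96 ± 0.12, adjusted p = 8.61e-11) and CXCL6 (2.28 ± 0.13, adjusted p = 3.72e-11) and the membrane-anchored fractalkine CX3CL1 (1.70 ± 0.09, adjusted p = 1.26e-11) followed. CXCL1 has close relatives in the same cluster with which it can share reads. The member called lower was CCL28, a mucosal chemokine (-0.52 ± 0.13, adjusted p = 0.00321). Further genes that NF-κB is known to drive rose in 13 of 17 cases and fell in none (median 1.09). Among them were the plasminogen activator PLAU, from 4.85, 5.39 and 4.79 to 36.8, 30.3 and 39.9 CPM (2.83 ± 0.11, adjusted p = 2.16e-13), the adhesion receptor ICAM1 (2.43 ± 0.19, adjusted p = 2.21e-09), the inhibitor of apoptosis BIRC3 (1.26 ± 0.17, adjusted p = 5.42e-06), the syndecan SDC4 (1.66 ± 0.08, adjusted p = 3.89e-12) and TNFAIP2 (1.20 ± 0.10, adjusted p = 4.12e-09).

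Promoters of the listed genes in several groups, whether or not the gene was called, were read from RefSeq windows of 300 bases on GRCh38.p14, running from 250 bases before to 50 bases after each gene's start, and searched on both strands. An NF-κB type motif, GGG and TTTCC with any 2 bases between them, lay in 8 of the 19 chemokine and cytokine windows that matched by symbol (42.1%), in 5 of 13 windows of NF-κB subunits and inhibitors (38.5%), in 2 of 14 TNF superfamily windows, and in 1 of 16 windows of other NF-κB targets. Of all 35116 windows, 1.91% held it. The windows with it include that of NFKB1, which fell. The 150 bases before the start of CCL20, CXCL6 and CXCL1 are shown because these genes rose and their windows hold the motif, which is in capitals, 79, 90 and 79 bases before the start. In CCL20 it reads on the opposite strand. The positions are chr2:227813692-227813841, chr4:73836528-73836677 and chr4:73869243-73869392, all on the plus strand.
CCL20: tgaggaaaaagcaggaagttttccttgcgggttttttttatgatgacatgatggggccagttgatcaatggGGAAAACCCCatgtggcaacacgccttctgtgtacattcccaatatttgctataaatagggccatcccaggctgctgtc
CXCL6: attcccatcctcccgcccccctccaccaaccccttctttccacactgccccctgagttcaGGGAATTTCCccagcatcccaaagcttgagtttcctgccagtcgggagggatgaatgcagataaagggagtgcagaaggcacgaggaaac
CXCL1: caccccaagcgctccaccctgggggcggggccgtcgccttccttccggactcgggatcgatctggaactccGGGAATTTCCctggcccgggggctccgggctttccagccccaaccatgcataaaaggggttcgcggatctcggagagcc
A match describes these letters only. No measurement of factor binding was made.

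Interferon-stimulated genes, the antiviral program switched on by interferons and by RNA sensors, rose in 20 of 30 cases tested and fell in 1 (median 0.68, range from -1.34 to 2.62). OAS1, an RNA-sensing oligoadenylate synthetase, went from 6.63, 7.54 and 5.87 to 17.6, 17.9 and 23.7 CPM and rose 2.96-fold (1.57 ± 0.14, adjusted p = 1.75e-08). IFITM3, a membrane protein that blocks virus entry, went from 26.6, 28.6 and 24.6 to 64.7, 66.97 and 74.8 CPM (1.37 ± 0.08, adjusted p = 7.73e-11), though it has near-identical neighbours with which it can share reads. SAMD9 (1.30 ± 0.11, adjusted p = 1.1e-08) and OAS3 (0.63 ± 0.07, adjusted p = 6.83e-07) rose too. MX2, a dynamin-like antiviral GTPase, was the member called lower, from 8.61, 9.75 and 10.8 to 4.74, 3.52 and 3.26 CPM (-1.34 ± 0.16, adjusted p = 8.06e-07).

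A motif of the interferon response element type, TTTC and again TTTC with any 2 bases between, was found in 20 of the 29 interferon-stimulated windows that matched (69%) and in 3.57% of all windows. IFITM3 is shown because it rose and holds the motif at 52 and again at 35 bases before its start, each on the opposite strand, within the 150 bases at chr11:320861-321010 on the minus strand.
IFITM3: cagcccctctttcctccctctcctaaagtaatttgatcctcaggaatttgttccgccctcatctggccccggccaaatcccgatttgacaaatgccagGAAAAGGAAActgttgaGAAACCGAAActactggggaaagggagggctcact

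**Figure D2:**
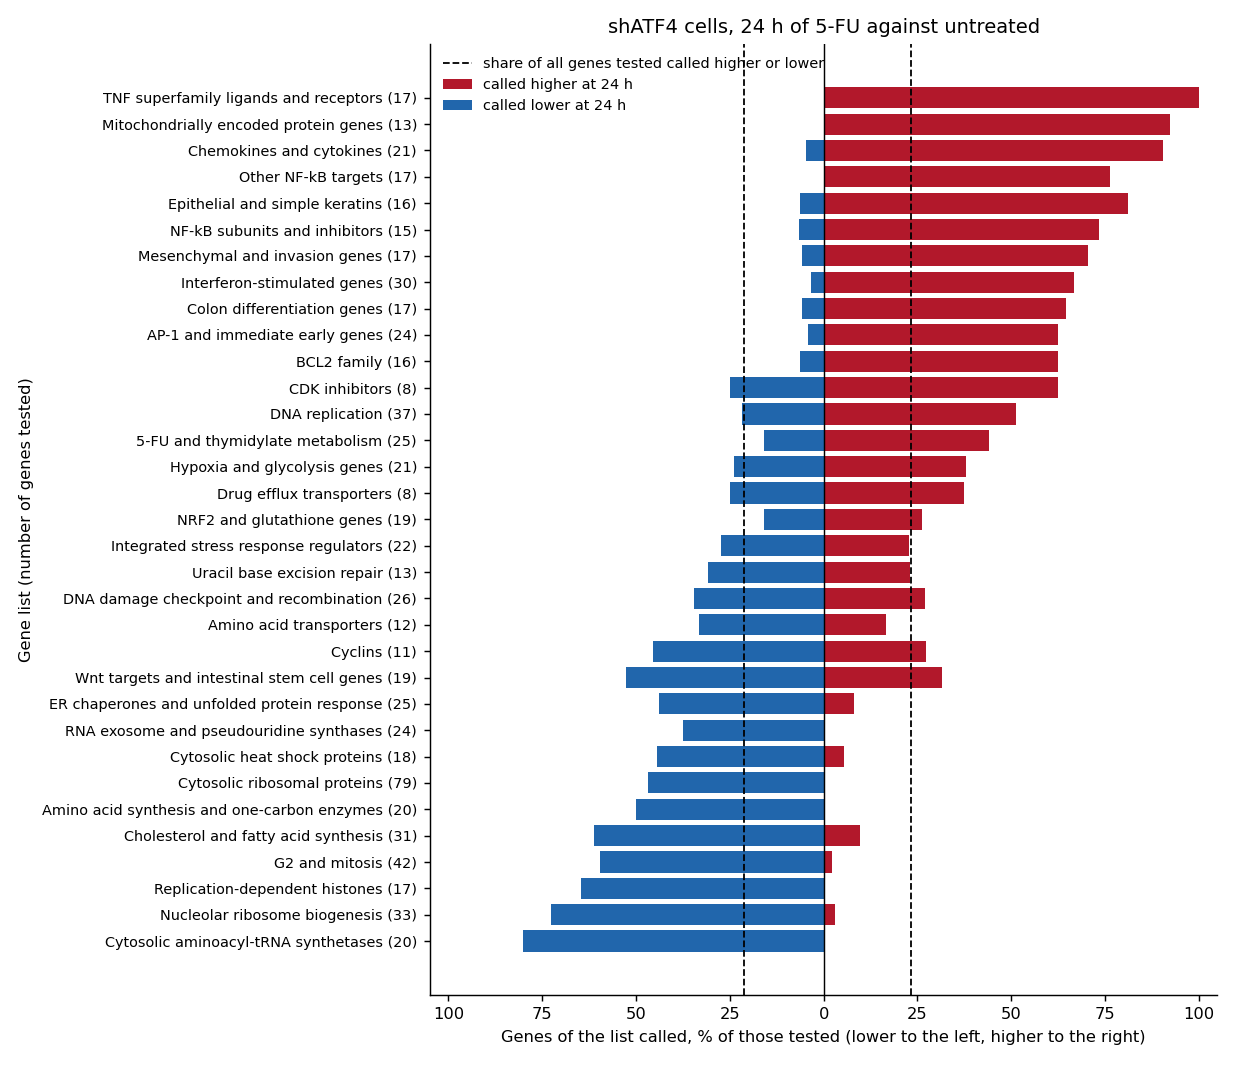
Share of the tested genes of each of 33 lists called higher (red, to the right) or lower (blue, to the left) in shATF4 cells after 24 h of 5-FU, with dashed lines at the share of all genes tested, 23.2% higher and 21.2% lower. TNF superfamily genes reach 17 of 17 higher, and cytosolic aminoacyl-tRNA synthetases 16 of 20 lower.

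Of 11 cyclin genes 3 rose and 5 fell, beside 23.2% higher and 21.2% lower over all genes. Those that rose act in G1 and at the entry to S phase: cyclin E2, CCNE2, went from 11.3, 11.6 and 13.1 to 29.4, 29.99 and 34.2 CPM (1.38 ± 0.11, adjusted p = 4.84e-09), CCNE1 rose 2.47-fold (1.30 ± 0.15, adjusted p = 4.73e-07) and cyclin D3, CCND3, 1.74-fold (0.80 ± 0.08, adjusted p = 6.71e-08). Genes of G2 and mitosis fell, 25 of 42 tested, with 1 called higher (median -0.36, range from -1.34 to 0.43). In bulk RNA, fewer cells in mitosis and less of these transcripts per cell cannot be told apart. The mitotic kinase PLK1 stood at 248, 264 and 261 CPM untreated and 102, 109 and 94.2 CPM at 24 h, lower in every treated library (-1.34 ± 0.07, adjusted p = 7.66e-12). CDC20, an activator of the anaphase-promoting complex, fell from 237, 240.4 and 253 to 109, 103 and 104 CPM (-1.21 ± 0.07, adjusted p = 2.99e-11). The spindle protein HMMR (-1.28 ± 0.09, adjusted p = 4.03e-10), the kinase AURKA (-0.95 ± 0.07, adjusted p = 1.13e-09) and cyclin B1, CCNB1 (-0.72 ± 0.08, adjusted p = 4.65e-07), fell with them. FOXM1, a transcription factor of that same program, rose (0.43 ± 0.07, adjusted p = 2.94e-05). Cyclin D1, CCND1, was called lower (-0.24 ± 0.08, adjusted p = 0.0191), but lost that call when untreated replicate 1 (adjusted p = 0.0524) or 2 (0.0668) or 24 h replicate 3 (0.0939) was left out.

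DNA replication genes were mixed, 19 higher and 8 lower of 37 (median 0.22). The origin licensing factors ORC6 (0.71 ± 0.08, adjusted p = 5.14e-07) and CDC6 (0.63 ± 0.08, adjusted p = 4.22e-06) and the flap endonuclease FEN1 (0.47 ± 0.08, adjusted p = 6.16e-05) rose. The helicase subunits MCM6 (-0.51 ± 0.06, adjusted p = 9.53e-07) and MCM3 (-0.46 ± 0.06, adjusted p = 2.4e-06) fell. Genes listed as replication-dependent histones fell in 11 of 17 cases and rose in none, with the lowest median of any list, -1.48. HIST1H2AC stood at 19.6, 21.8 and 20.5 CPM untreated and 4.68, 5.8 and 4.25 CPM at 24 h and fell 4.22-fold (-2.08 ± 0.13, adjusted p = 8.61e-11). HIST1H2BK fell 3.25-fold from 35.6, 32.9 and 35.1 to 10.1, 10.6 and 11.1 CPM (-1.70 ± 0.11, adjusted p = 2.88e-10). Libraries were made from RNA with poly(A) tails, which most histone messages lack, and the list holds genes known to give polyadenylated forms, so these values cover the tailed part only.

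Among 26 checkpoint and recombination genes 7 rose and 9 fell (median 0.04), beside 23.2% higher and 21.2% lower over all genes. ATR, the kinase that senses stalled forks, fell from 91.1, 87.8 and 86.2 to 54.4, 50.5 and 48.5 CPM (-0.79 ± 0.07, adjusted p = 1.7e-08). The fork checkpoint adaptor CLSPN (0.78 ± 0.06, adjusted p = 5.98e-09), the recombination factor XRCC2 (0.70 ± 0.08, adjusted p = 2.41e-07) and the BRCA2 partner PALB2 (0.63 ± 0.09, adjusted p = 4.46e-06) rose.

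The pathway that carries 5-FU and thymidylate rose in 11 of 25 genes and fell in 4 (median 0.09). TYMS, the enzyme that 5-FU blocks, stood at 49.2, 49.7 and 51.4 CPM untreated and 54.96, 61.9 and 55.6 CPM at 24 h. The treated libraries were just above the untreated ones, and the small rise (0.20 ± 0.07, adjusted p = 0.0359) was lost when untreated replicate 1, 2 or 3 or 24 h replicate 2 was left out (adjusted p of 0.0969, 0.0901, 0.0518 and 0.171). The thymidine salvage kinase TK1 rose 1.72-fold, from 236, 265 and 277 to 432, 484 and 423 CPM (0.79 ± 0.08, adjusted p = 1.07e-07). UPP1, a phosphorylase that can activate 5-FU (0.65 ± 0.07, adjusted p = 3.39e-07), and the ribonucleotide reductase subunit RRM1 (0.63 ± 0.06, adjusted p = 7.94e-08) rose. The pyrimidine synthesis enzymes DHODH (-0.75 ± 0.09, adjusted p = 7.9e-07) and CAD (-0.78 ± 0.08, adjusted p = 1.26e-07) fell. DPYD, the main enzyme of 5-FU breakdown, had 0.615, 0.83 and 0.429 CPM untreated and 0.374, 0.484 and 0.291 CPM at 24 h and did not pass (-0.71 ± 0.47, adjusted p = 0.231). Of 13 genes of uracil excision repair 3 rose and 4 fell, shares near those of all genes. SMUG1, a uracil glycosylase, rose (0.58 ± 0.08, adjusted p = 1.22e-05), while the abasic site nuclease APEX1 (-0.65 ± 0.07, adjusted p = 5.77e-07) and the ligase LIG3 (-1.01 ± 0.08, adjusted p = 7.67e-09) fell. UNG, the main uracil glycosylase, was called higher (0.19 ± 0.07, adjusted p = 0.0294), and that call was lost without any 1 of untreated replicates 1, 2 and 3 (adjusted p of 0.071, 0.0513 and 0.0846) or of 24 h replicates 2 and 3 (0.0678 and 0.133). Without 24 h replicate 2 the list had 4 calls, 2 in each direction.

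The integrated stress response, ATF4's own pathway, showed calls in both directions: 5 of 22 genes tested rose and 6 fell (median 0.07), shares close to those of all genes. Among the effectors, DDIT3, which encodes CHOP, stood at 8.54, 8.02 and 7.37 CPM untreated and 8.23, 9.12 and 11.5 CPM at 24 h and did not pass (0.27 ± 0.14, adjusted p = 0.118), although it did without 24 h replicate 1 (0.36, adjusted p = 0.0491). CHAC1, a glutathione-degrading enzyme used as a readout of ATF4 activity, had 4.64, 4.15 and 5.01 CPM untreated and 5.43, 4.42 and 3.79 CPM at 24 h, with overlapping groups (-0.02 ± 0.17, adjusted p = 0.942). TRIB3, a pseudokinase that restrains ATF4 and CHOP, did not pass either (-0.04 ± 0.08, adjusted p = 0.71). The ATF4 relative ATF5 rose (0.76 ± 0.10, adjusted p = 2.78e-06), as did PPP1R15A or GADD34, the eIF2 phosphatase subunit that ends the response (0.69 ± 0.08, adjusted p = 3.45e-07), and GDF15 as given above. The secreted glycoprotein STC2 fell from 63.8, 62.3 and 63.1 to 32.8, 33.5 and 42.5 CPM (-0.80 ± 0.09, adjusted p = 3.82e-07). The kinase gene EIF2AK3, encoding PERK, did not pass (-0.07 ± 0.13, adjusted p = 0.679). In scramble cells 9 of the same 22 genes were called higher and 5 lower (median 0.36). There CHAC1 was called (0.63 ± 0.16, adjusted p = 0.00263), but the difference between the lines did not pass the test (-0.65 ± 0.23, adjusted p = 0.137).

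ATF4 is known to drive genes of amino acid synthesis, amino acid uptake and tRNA charging. Among 20 enzymes of amino acid synthesis and one-carbon metabolism, 10 fell and none rose (median -0.21). Under upper-quartile scaling 8 fell and 1 rose. MTHFD1L, a mitochondrial folate enzyme, fell from 181, 183 and 173 to 88.8, 82.2 and 75.8 CPM (-1.12 ± 0.07, adjusted p = 8.48e-11). The serine synthesis enzyme PSAT1 (-0.47 ± 0.08, adjusted p = 8.05e-05), the mitochondrial serine enzyme SHMT2 (-0.40 ± 0.06, adjusted p = 1.81e-05) and the proline synthesis enzyme PYCR1 (-0.50 ± 0.08, adjusted p = 4.04e-05) fell too. PHGDH, the first enzyme of serine synthesis, had 30.9, 26.6 and 26.3 CPM untreated and 23.6, 25.1 and 24.3 CPM at 24 h and did not pass (-0.20 ± 0.09, adjusted p = 0.0775), although no treated library reached an untreated one. ASNS, asparagine synthetase, was scarce (0.82, 1.31 and 0.787 CPM untreated and 0.437, 0.484 and 0.233 CPM at 24 h) and fell (-1.34 ± 0.41, adjusted p = 0.0108), but not when untreated replicate 2 (adjusted p = 0.0687) or 24 h replicate 3 (0.0648) was left out. Among 12 amino acid transporters 2 rose and 4 fell, where 23.2% of all genes were called higher and 21.2% lower. SLC7A5, the light chain of the leucine transporter, fell from 754, 795 and 827 to 429, 443 and 312 CPM (-1.01 ± 0.10, adjusted p = 8.79e-08), while its heavy chain SLC3A2 rose from 471, 476 and 484 to 592, 673 and 654 CPM (0.42 ± 0.06, adjusted p = 9.64e-06). The glutamine transporter SLC38A1 fell (-0.60 ± 0.07, adjusted p = 4.76e-07). Cytosolic aminoacyl-tRNA synthetases, which charge tRNAs, fell in 16 of 20 cases and rose in none (median -0.41, range from -0.91 to 0.01), led by the glycyl enzyme GARS, from 230.5, 229 and 229.8 to 125, 116 and 125 CPM (-0.91 ± 0.07, adjusted p = 1.02e-09), and the isoleucyl enzyme IARS (-0.72 ± 0.06, adjusted p = 1.53e-08). Scramble cells, with 21.8% of all genes called higher and 22.2% lower, also had falls in these 3 lists. There 7 synthesis enzymes fell and 2 rose (median -0.20), and 6 transporters fell and 3 rose (median -0.25). Of the synthetases 16 fell and 0 rose in scramble cells (median -0.33). The difference between the lines was called for 0 synthesis enzymes, 0 transporters and 2 synthetases, both lower in shATF4 cells.

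The composite letters TGATGNAAT, a form of the site bound by ATF4 with a C/EBP partner, were in 1 of 21 matched windows of stress response regulators (FGF21, below the count filter), in 1 of 12 of amino acid synthesis enzymes (MTHFD1L), in 0 of 11 of amino acid transporters and in 0 of the 2 matched synthetases, against 0.991% of all windows. MTHFD1L is shown because it fell and holds these letters 129 bases before its start, at chr6:150866336-150866485 on the plus strand.
MTHFD1L: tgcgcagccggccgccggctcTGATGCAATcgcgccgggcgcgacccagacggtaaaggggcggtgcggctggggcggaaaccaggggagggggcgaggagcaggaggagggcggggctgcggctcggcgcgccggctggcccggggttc

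Of 79 cytosolic ribosomal protein genes 37 fell and none rose (median -0.24), and without the third 24 h library 71 of 79 fell (median -0.47). Without the first 24 h library 28 fell and 8 rose (median -0.11), and 1 gene rose under RLE or upper-quartile scaling. The list's median difference from untreated was -0.57, -0.36 and 0.08 in 24 h replicates 1, 2 and 3. The third library was also the one with higher short genes: over 11024 genes of at least 5 CPM sorted into 5 equal classes by length, its shortest class exceeded its longest by 0.33 in median log2 difference, against -0.01 and 0.16 in replicates 1 and 2. Of the 79 genes, 37 lie in that shortest class. The part of gene length in the ribosomal protein result was not tested. RPL3, a core protein of the large subunit, fell in every treated library, from 1765, 1717 and 1804 to 719, 747 and 798 CPM (-1.22 ± 0.05, adjusted p = 8.88e-13). RPL10A (-1.06 ± 0.10, adjusted p = 2.04e-08), RPL13A (-0.75 ± 0.07, adjusted p = 2.65e-08) and RPL4 (-0.63 ± 0.05, adjusted p = 9.75e-09) fell. Ribosomal protein genes, and likewise NPM1 and HSPA8 below, have processed pseudogenes with which they can share reads.

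**Figure D3:**
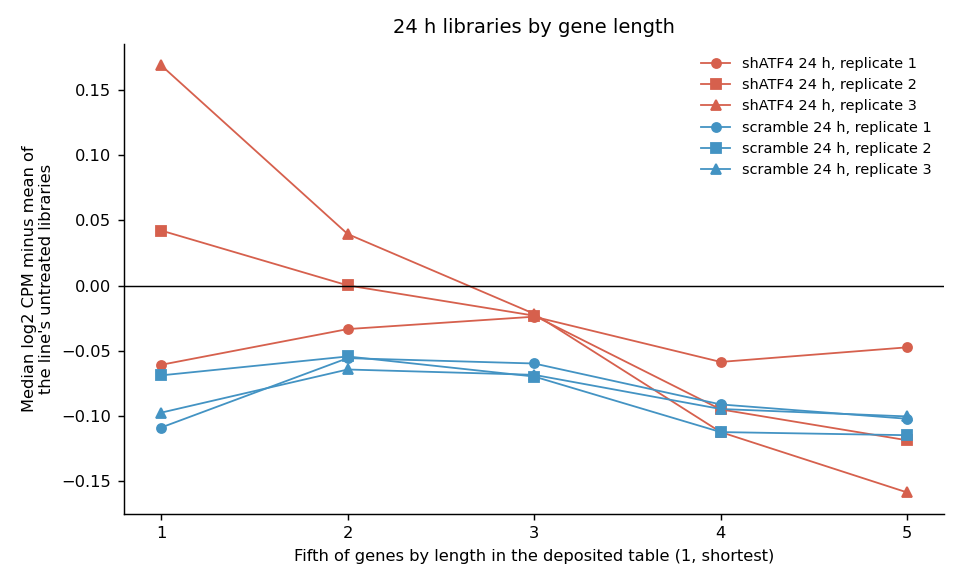
Median over genes of log2 CPM minus the mean of the same line's untreated libraries, in 5 classes of gene length (1 is the shortest), for each 24 h library of shATF4 (red) and scramble (blue) cells; points are libraries' medians. The third shATF4 library slopes from 0.17 in the shortest class to -0.16 in the longest.

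Nucleolar factors that build ribosomes fell in 24 of 33 cases and rose in 1 (median -0.33). Nucleophosmin, NPM1, went from 1666, 1576 and 1519 to 822, 856 and 1006 CPM (-0.83 ± 0.08, adjusted p = 4.95e-08). UTP20, part of the small subunit processome, fell 2.17-fold (-1.12 ± 0.10, adjusted p = 1.58e-08), and RRP12 (-0.73 ± 0.08, adjusted p = 1.98e-07) and RRP9 (-0.65 ± 0.08, adjusted p = 7.05e-07) fell less. BYSL, another small subunit factor, was called higher (0.24 ± 0.08, adjusted p = 0.0227), a call lost without untreated replicates 1 or 2 (adjusted p of 0.0544 and 0.0712) or 24 h replicate 3 (0.12, adjusted p = 0.176). The nuclear exosome and the pseudouridine synthases, enzymes that act on RNA into which 5-FU is built, fell in 9 of 24 cases and rose in none (median -0.10), with PUS7 (-0.75 ± 0.08, adjusted p = 1.82e-07) and RPUSD4 (-0.79 ± 0.09, adjusted p = 3.11e-07) among them.

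Of 18 cytosolic heat shock genes 8 fell and 1 rose. HSPA8, the constitutive HSC70 chaperone and among the most abundant transcripts named here, went from 3186, 2974 and 2952 to 1115, 1234 and 1442 CPM (-1.27 ± 0.08, adjusted p = 8.44e-11), and HSP90AB1 from 3604, 3428 and 3507 to 1922, 2031 and 2107 CPM (-0.80 ± 0.05, adjusted p = 1.66e-10). The endoplasmic reticulum chaperones HSPA5 or BiP (-0.73 ± 0.06, adjusted p = 2.06e-09) and HSP90B1 (-0.72 ± 0.06, adjusted p = 4.38e-09) and the unfolded protein response factor XBP1 (-0.49 ± 0.06, adjusted p = 2.34e-06) fell, within a list of 25 of which 11 fell and 2 rose. ERN1, the IRE1 sensor that splices XBP1, rose (0.68 ± 0.09, adjusted p = 1.58e-06). Of 31 cholesterol and fatty acid synthesis genes 19 fell and 3 rose (median -0.34). INSIG1, the sterol-sensing brake, fell from 31.4, 32.02 and 30.4 to 12.3, 12.4 and 11.1 CPM (-1.39 ± 0.11, adjusted p = 4.84e-09), and SQLE (-0.96 ± 0.08, adjusted p = 1.52e-08), HMGCS1 (-0.83 ± 0.09, adjusted p = 3.44e-07) and the master regulator SREBF2 (-0.62 ± 0.07, adjusted p = 4.46e-07) fell.

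Of transcripts encoded by the mitochondrial genome, 12 of 13 protein genes rose and none fell (median 0.80), while in scramble cells 1 of the 13 was called, lower (median -0.08). The scramble value turned on untreated replicate 2: without it 7 of the 13 were called higher in scramble cells and 1 lower (median 0.33). MT-ND1, a subunit of complex I, stood at 323, 311 and 300.4 CPM untreated and 782, 661 and 745 CPM at 24 h (1.23 ± 0.19, adjusted p = 2.56e-05). MT-CO2, a subunit of cytochrome oxidase, stood at 1083, 1072 and 1035 and 1969, 1820 and 2714 CPM (1.03 ± 0.16, adjusted p = 2.25e-05). Treated libraries lay above untreated ones for both. MT-ND4L rose from 106, 95.8 and 102 to 189, 161 and 416 CPM (1.34 ± 0.24, adjusted p = 0.000118), with replicate 3 far above the other two. It overlaps MT-ND4, and MT-ND6 (1.03 ± 0.16, adjusted p = 2.29e-05) lies on the other strand, so reads of these genes cannot be told apart from their neighbours' where the counting ignored strand. Mitochondrial ribosomal RNA took 0.365% to 0.392% of counts untreated and 1.14% to 1.45% at 24 h in these poly(A)-selected libraries. It was higher at 24 h in scramble cells too, at 0.359% to 0.457% untreated and 0.881% to 0.955% at 24 h. The part of that shift in the messages' rise was not tested.

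Of 16 keratins tested 13 rose and 1 fell (median 1.23, range from -0.23 to 4.74). KRT17, a keratin of stressed and wounded epithelia, stood at 1.64, 1.73 and 1.15 CPM untreated and 18.96, 19.5 and 23.0 CPM at 24 h, a 13.5-fold rise (3.76 ± 0.16, adjusted p = 6.85e-13). KRT81 (2.14 ± 0.12, adjusted p = 1.89e-11) and the intestinal keratin KRT20, from 1.23, 1.11 and 1.65 to 7.17, 7.19 and 8.15 CPM (2.50 ± 0.19, adjusted p = 2.58e-09), rose. KRT18, the abundant simple keratin of this line, was called lower (-0.23 ± 0.05, adjusted p = 0.000812). Colon differentiation genes rose in 11 of 17 cases and fell in 1 (median 1.16): the transmembrane mucin MUC13 went from 46.04, 45.3 and 47.5 to 117, 121 and 133 CPM (1.42 ± 0.07, adjusted p = 3.02e-12), and the adhesion molecules CEACAM1 (1.64 ± 0.12, adjusted p = 6.66e-10) and CEACAM6 (2.03 ± 0.15, adjusted p = 1.08e-09) rose, while the brush border protein VIL1 fell from 494, 473 and 524 to 297, 305 and 299 CPM (-0.73 ± 0.06, adjusted p = 5.62e-09). The largest fold in the list was that of the goblet cell mucin MUC2, named after its values were seen, with 1 count in the untreated libraries and 90 at 24 h (count ratio 81.3, 95% exact interval 14.2 to 3247, counting error only). A further 11 of the 28 genes listed were below the count filter, the enterocyte genes FABP2, ALPI and SLC26A3 among them, so the counts describe only the members expressed here.

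Wnt targets and stem cell genes fell in 10 of 19 cases and rose in 6 (median -0.40). ASCL2, the master regulator of intestinal stem cells, went from 205, 226 and 239.8 to 65.7, 71.05 and 49.4 CPM (-1.85 ± 0.11, adjusted p = 8.48e-11). The Wnt feedback inhibitors NKD1, from 3952, 3801 and 3939 to 1672, 1564 and 1428 CPM (-1.33 ± 0.06, adjusted p = 2.22e-12), and NOTUM, from 1003, 1152 and 1227 to 414, 432 and 346 CPM (-1.50 ± 0.10, adjusted p = 2.76e-10), fell, as did APCDD1 (-0.90 ± 0.07, adjusted p = 7.37e-09). MYC fell (-0.40 ± 0.06, adjusted p = 1.57e-05), while CD44 rose (0.74 ± 0.10, adjusted p = 2.77e-06).

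Adhesion and matrix genes listed as mesenchymal or invasive rose in 12 of 17 cases and fell in 1 (median 0.96), but the list mixes epithelial and mesenchymal genes. LAMA3, the α3 chain of the epithelial basement membrane laminin 332, stood at 29.03, 29.8 and 24.6 CPM untreated and 142, 144 and 145 CPM at 24 h. Its treated values were nearly identical to each other, and it rose 5.17-fold (2.37 ± 0.08, adjusted p = 1.45e-14). E-cadherin, CDH1, a marker of epithelial identity included in the list, rose from 200.2, 193 and 198 to 423, 369 and 356 CPM (0.96 ± 0.06, adjusted p = 3.09e-10). Fibronectin, FN1, fell (-0.40 ± 0.08, adjusted p = 0.000224), and the mesenchymal filament VIM did not pass (-0.04 ± 0.09, adjusted p = 0.74).

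AP-1 and immediate early genes rose in 15 of 24 cases and fell in 1, MYC (median 0.49). EGR3 went from 2.19, 2.14 and 2.22 to 16.9, 14.3 and 11.5 CPM (2.70 ± 0.18, adjusted p = 2.24e-10), and the MAP kinase phosphatase DUSP5 from 4.64, 4.84 and 4.37 to 27.7, 23.2 and 27.6 CPM (2.50 ± 0.11, adjusted p = 5.67e-13). JUNB (1.14 ± 0.10, adjusted p = 1.88e-08), MAFF (1.55 ± 0.12, adjusted p = 1.98e-09) and FOSL1 (0.44 ± 0.08, adjusted p = 0.000169) rose. The AP-1 type letters TGACTCA were in 4 of 16 matched windows of the adhesion and matrix list (25%), in 1 of 19 of the AP-1 list and in 0 of 4 keratin windows, against 4.95% of all windows. LAMA3 is shown because it rose and holds the letters at 125 bases and, on the opposite strand, at 69 bases before its start, at chr18:23872870-23873019 on the plus strand. None of the capitals printed in any of these windows overlaps a match of another of the 4 motifs.
LAMA3: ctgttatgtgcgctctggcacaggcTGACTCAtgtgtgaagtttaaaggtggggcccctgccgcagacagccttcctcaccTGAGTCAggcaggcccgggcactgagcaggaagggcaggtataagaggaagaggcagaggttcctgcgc

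Among 19 NRF2 and glutathione genes 5 rose and 3 fell, shares near those of all genes. HMOX1, heme oxygenase, rose 3.86-fold from 0.956, 1.94 and 2.29 to 6.8, 5.8 and 7.34 CPM (1.95 ± 0.23, adjusted p = 1e-06), the NRF2 target NQO1 rose little (0.34 ± 0.07, adjusted p = 0.000571), and the glutathione enzymes GSR (-0.32 ± 0.07, adjusted p = 0.000764) and GSS (-0.42 ± 0.09, adjusted p = 0.000431) fell. Of 21 hypoxia and glycolysis genes 8 rose and 5 fell, with hexokinase 1, HK1, up (0.92 ± 0.06, adjusted p = 1.41e-10) and hexokinase 2, HK2, down (-0.32 ± 0.06, adjusted p = 0.000176). Of 8 drug efflux transporters 3 rose, among them ABCB1, which encodes P-glycoprotein (0.51 ± 0.11, adjusted p = 0.000974), and 2 fell. Over all genes 23.2% were called higher and 21.2% lower, so so few members do not set this list apart.

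Across all protein-coding genes that averaged 1 CPM or more and whose groups did not overlap, the largest rises included genes that were nearly silent untreated. KRT16, a keratin of the wound response, stood at 0.205, 0.0692 and 0.143 CPM untreated and 2.93, 4.29 and 4.54 CPM at 24 h (4.74 ± 0.48, adjusted p = 1.23e-07). The BMP and TGF-β family receptor ACVRL1 (ALK1) went from 0, 0.207 and 0.358 to 4.62, 4.15 and 4.02 CPM (4.46 ± 0.35, adjusted p = 2.61e-09), and the phosphatase PTPN7 from 0.205, 0.138 and 0.0716 to 3.06, 3.18 and 3.09 CPM (4.40 ± 0.37, adjusted p = 7.84e-09). GPR137C (3.77), PADI1, an enzyme that citrullinates proteins of the epidermis (3.71), KRT6B (3.59), KRT6A (3.57), TMEM92 (3.50) and ZC3H12D (3.48) completed the set with KRT17. KRT6A, KRT6B, KRT16 and KRT17 have close copies and can share reads with them. The largest fall was in DHRS2, a short-chain reductase (chromosome 14, 23630115 to 23645639, plus strand), from 4.71, 4.01 and 3.94 to 0.312, 0.276 and 0.291 CPM, a 14.03-fold decrease (-3.81 ± 0.31, adjusted p = 5.98e-09). HIST3H2A (-2.36), HIST2H2BE (-2.34), HIST1H2AC and HIST1H2BD (-1.91) came from the histone genes. PSD2 (-2.27), the semaphorin SEMA5B (-2.07), the cytochrome P450 CYP2E1 (-1.90), ASCL2 and IER5L (-1.84) made up the rest.

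The scramble line asks which of these changes depend on the hairpin line. Its 24 h response shares no library with that of shATF4 cells. It had 7610 calls, 44.0% of the genes tested, of which 49.5% were higher (60.1% under upper-quartile scaling), and 5263 genes were called in both lines, 68.5% of the shATF4 calls and 69.2% of the scramble calls. Of those, 5224 changed in the same direction and 39 in opposite directions. Across the 17309 genes the log2 changes of the 2 lines had a Pearson correlation of 0.71, given as a description since genes are not independent. The difference between the responses was called for 369 genes, 2.13% of those tested, with 164 (0.947%) higher and 205 (1.18%) lower in shATF4 cells. That number rests heavily on single libraries: leaving out 1 of the 12 libraries gave 65 (without shATF4 untreated replicate 2) to 1188 (without shATF4 24 h replicate 1), and it was 678 without shATF4 24 h replicate 3. Under upper-quartile scaling 375 were called, of which 30.7% were higher in shATF4 cells, against 44.4% under the scaling used here.

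**Figure D4:**
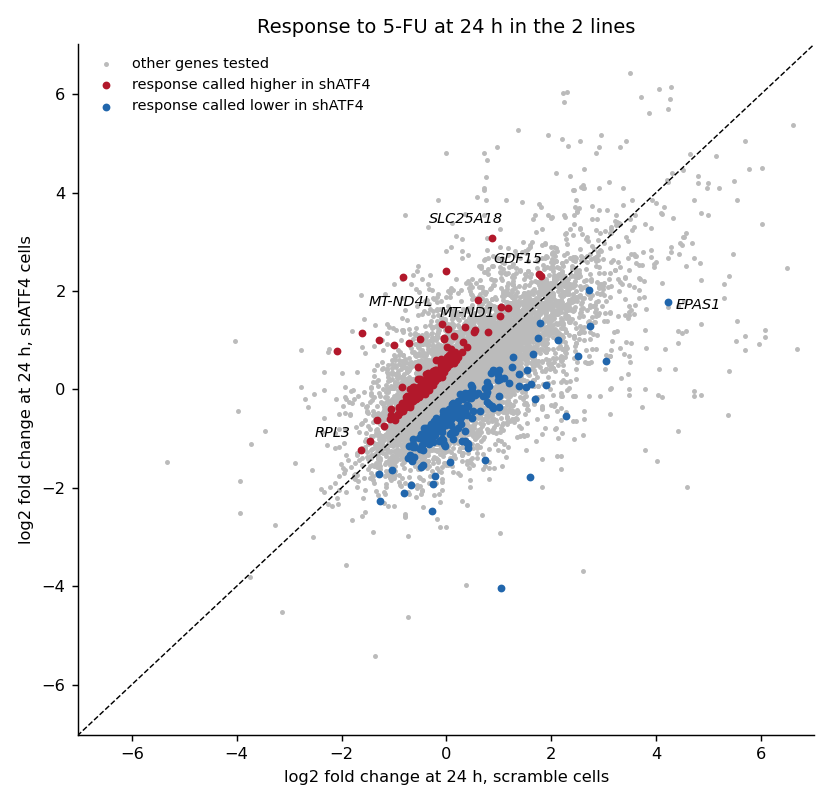
Log2 fold change after 24 h of 5-FU in scramble cells (horizontal axis) and shATF4 cells (vertical axis), 1 point per gene tested; the dashed line marks equal responses, and genes whose responses differed are red (164, higher in shATF4) or blue (205, lower). Points spread along the line, and EPAS1 and MT-ND1 are among those away from it.

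The difference between the lines did not pass for CDKN1A (-0.61 ± 0.32, adjusted p = 0.313), CXCL8 (0.39 ± 0.23, adjusted p = 0.386), PLK1 (0.06 ± 0.10, adjusted p = 0.809) or KRT17 (0.38 ± 0.26, adjusted p = 0.468). The standard errors leave room for a difference of a sizeable fold in CDKN1A and for less in PLK1. GDF15 rose more in shATF4 cells (difference 0.52 ± 0.11, adjusted p = 0.0225), from 37.7, 44.6 and 39.4 CPM untreated to 135, 150.2 and 138 CPM at 24 h in the scramble line. GARS (-0.43 ± 0.09, adjusted p = 0.0225), CAD (-0.43 ± 0.11, adjusted p = 0.048), ATR (-0.41 ± 0.10, adjusted p = 0.0325) and APCDD1 (-0.54 ± 0.11, adjusted p = 0.0145) fell further in shATF4 cells. With the 12 libraries left out in turn these calls were lost 5 times for GDF15, 5 for GARS, 9 for CAD, 9 for ATR and 1 for APCDD1, the last without shATF4 untreated replicate 2.

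RPL3 fell less in shATF4 cells (0.40 ± 0.08, adjusted p = 0.0127), a call lost without scramble 24 h replicate 3 or shATF4 untreated replicate 2 (adjusted p up to 0.0534), and 10 of the 79 ribosomal protein genes were called as responding higher there. The third shATF4 24 h library was shifted toward short genes, and the part of that shift was not tested. The number was 21 without that library, 64 without 24 h replicate 1, and 0 without scramble 24 h replicate 3. In scramble cells 71 of 79 ribosomal protein genes fell (median -0.68). For the mitochondrially encoded genes the median difference was 0.78, with 4 of 13 called higher in shATF4 cells: MT-ND1 (1.20 ± 0.27, adjusted p = 0.0253), MT-ND2 (0.59 ± 0.14, adjusted p = 0.0294), MT-ND4L (1.42 ± 0.33, adjusted p = 0.0301) and MT-CYB (0.91 ± 0.24, adjusted p = 0.0459), the last named after its values were seen. Scramble untreated replicate 2 had 1.42% of its counts on mitochondrial messages, against 0.753% and 0.766% in its fellow replicates, and without it the median difference was 0.45, with 4 called. None of the 13 was called when any 1 of the 3 untreated shATF4 libraries or scramble 24 h replicates 1 or 3 was left out.

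Among the 12 genes with the largest differences (6 in each direction, at least 1 CPM) were the mitochondrial MT-ND1 and MT-ND4L and several scarce transcripts. The hypoxia factor EPAS1 (HIF-2α) went from 0.205, 0.761 and 0.716 to 1.93, 2.21 and 1.69 CPM in shATF4 cells and from 0.0732, 0.254 and 0.134 to 2.93, 3.33 and 2.96 CPM in scramble cells (difference -2.44 ± 0.60, adjusted p = 0.0363). EPAS1 rose in both lines. Its untreated values were under 1 CPM in every library, overlapped between the lines and were not compared by a test. SLC25A18, a mitochondrial glutamate carrier, rose in shATF4 cells from 0.41, 0.207 and 0.215 to 2.31, 2.76 and 2.21 CPM and did not pass in scramble cells (0.87 ± 0.37, adjusted p = 0.0619; difference 2.22 ± 0.56, adjusted p = 0.0431). POMK, a kinase of dystroglycan glycosylation, went from 9.43, 8.78 and 9.88 to 18.6, 19.9 and 19.04 CPM in shATF4 cells and from 7.61, 9 and 8.04 to 8.85, 7.42 and 7.76 CPM in scramble cells, with the shATF4 treated libraries above all others (difference 1.07 ± 0.20, adjusted p = 0.011). When the 12 libraries were left out in turn, the call was lost in 8 of 12 cases for EPAS1 (adjusted p up to 0.132), in 9 for SLC25A18 (up to 0.118) and in none for POMK (up to 0.0397). Of the 12 genes, 10 lost it in at least 1 case.

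**Figure D5:**
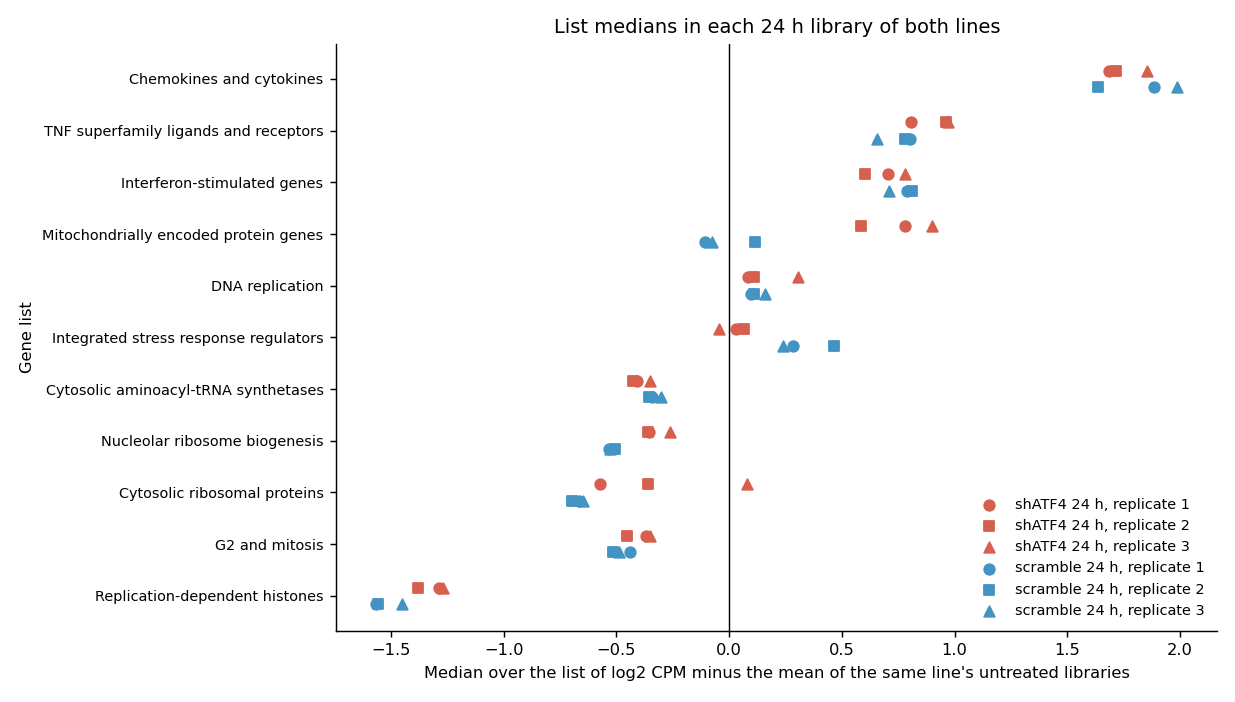
Median over each of 11 gene lists of log2 CPM minus the mean of the same line's untreated libraries, for each 24 h library (symbols) of shATF4 (red) and scramble (blue) cells. The lines overlap or lie close for chemokines and interferon-stimulated genes, mitochondrially encoded genes lie between 0.58 and 0.90 in shATF4 cells, and the third shATF4 library stands alone at 0.08 for ribosomal proteins.

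The shATF4 libraries at 48 h show where the early response went next. They were set against the same 24 h libraries, so the values are given side by side with the 24 h changes and not correlated with them. Of 17309 genes 48.2% were called between 24 h and 48 h, 23.7% higher and 24.5% lower. Of the 1443 genes that rose at least 2-fold by 24 h, 487 were called higher still at 48 h, 213 lower and 743 in neither direction. Of the 413 that fell at least 2-fold, 217 were called higher at 48 h than at 24 h and 28 lower. Both sets were picked by their values in the 24 h libraries that also serve as the baseline here. That choice tilts the counts toward reversal, so they describe these genes only and do not test whether the response reversed. CDKN1A (1.44 ± 0.14, adjusted p = 7.45e-08), CCL20 (1.11 ± 0.12, adjusted p = 3.31e-07) and ABCB1 (1.40 ± 0.11, adjusted p = 5.46e-09) rose further. Of 30 interferon-stimulated genes 20 were higher at 48 h than at 24 h (median 0.68). KRT20 fell back (-2.14 ± 0.20, adjusted p = 5.55e-08), and 10 of 16 keratins were lower at 48 h than at 24 h. Of 17 histone genes 15 were higher at 48 h than at 24 h (median 2.41), HIST1H2AC among them (2.66 ± 0.13, adjusted p = 7.16e-12). Of 42 genes of G2 and mitosis 24 were higher at 48 h and 3 lower. Of 79 ribosomal protein genes 74 were lower at 48 h than at 24 h (median -0.83). The 24 h side includes the third library, where their median difference from untreated was 0.08, against -0.57 and -0.36 in replicates 1 and 2. The part of that library in the later fall was not tested. PHGDH, not called at 24 h, was higher at 48 h (1.40 ± 0.09, adjusted p = 4.88e-10), as was CHAC1 (1.37 ± 0.17, adjusted p = 1.23e-06), while PYCR1 fell further (-1.35 ± 0.09, adjusted p = 8.7e-10). CAD, which had fallen, was higher at 48 h than at 24 h (0.88 ± 0.09, adjusted p = 8.92e-08).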

How the data were processed

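Per the labels, poly(A) RNA libraries were sequenced, and per the submitters' processing notes reads were counted per gene with featureCounts 1.5.0-p3 on GRCh38 (hg38). Aligner, annotation release, strand setting: not given in the sources used here. The authors deposited raw read counts and FPKM values per library, with log2 fold changes and p-values of their own comparisons. Those comparisons and the FPKM values were kept apart from the results here, apart from the deposited table named once. From the counts, edgeR 4.0.16 (R 4.3.3; TMM scaling, filterByExpr, quasi-likelihood test, Benjamini-Hochberg adjustment) was fitted to all 16 libraries in 6 groups. 17309 of 58735 genes were tested. Library totals of 14571611 to 17824188 set the counting precision, and the common biological coefficient of variation was 0.0847. CPM use the scaled library size.

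The members and lists were chosen with earlier results of these data known. Named genes are a list of key genes, the 10 largest rises and 10 largest falls (called, at least 1 CPM, protein-coding, groups not overlapping), up to 4 called members of each list with the smallest adjusted p and up to 2 going against the majority, and the 6 largest differences between lines in each direction. Alternatives were other scalings, filters, DESeq2 1.42.0, a 1.5-fold threshold, the groups compared only, a replicate block and leaving out each library. Some results are not reported here. Leaving out both libraries that stood apart was chosen after seeing the data.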

Additional observations from a re-analysis of the deposited data

Results flagged for a closer look

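In edgeR's test of the difference itself, the log2 change at 24 h differed between shATF4 and scramble cells for 369 genes. The 22 given here are named genes from that set, with 3 libraries per group. The 12 with the largest differences were picked by this same test, so their calls are no separate support. ANKRD34A, DNALI1 and JPH3 among them were not called at 24 h within shATF4 cells. Values are shATF4 minus scramble, with edgeR's adjusted p. Among genes of the lists, GDF15, the stress hormone, rose more by 0.52 (adjusted p = 0.0225), and the small subunit factor BYSL responded higher by 0.47 (0.0431). The ribosomal proteins RPL3 (difference 0.40, adjusted p = 0.0127) and RPL13A (0.45, 0.0225) fell less. The glycyl-tRNA synthetase GARS (-0.43, 0.0225), the pyrimidine synthesis enzyme CAD (-0.43, 0.048), the checkpoint kinase ATR (-0.41, 0.0325) and the Wnt inhibitor APCDD1 (-0.54, 0.0145) fell further.

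The mitochondrially encoded MT-ND1 (1.20, adjusted p = 0.0253), MT-ND2 (0.59, 0.0294) and MT-ND4L (1.42, 0.0301) responded higher in shATF4 cells, as did SLC25A18 (2.22, 0.0431), POMK (1.07, 0.011), CCDC12 (1.0015, 0.008) and ZNF816 (0.94, 0.0301), a zinc finger gene with close copies. PSD2 (-1.01, adjusted p = 0.0361), EPAS1 (-2.44, 0.0363), ANKRD34A (-1.88, 0.0195), TBC1D10C (-1.84, 0.0441), DNALI1 (-1.81, 0.0245), JPH3 (-1.52, 0.0188) and KIF19 (-1.51, 0.0273) responded lower. When each of the 12 libraries of both lines was left out in turn, 20 of the 22 genes lost the call at least once, and POMK and CCDC12 did not.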

How the results depend on the processing

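The 7687 calls at 24 h stayed between 6486 and 7981 in every alternative run except the test against a 1.5-fold threshold, which left 1546. That threshold left 2007 of the 8349 calls between 24 h and 48 h, 1605 of the 7610 scramble calls and 0 of the 369 differences between the lines (479 genes at an unadjusted p under 0.05 in the same edgeR test). The number of differences was 798 with no filter on low counts, 606 in DESeq2, 173 with only the groups compared, 647 without both libraries that stood apart, and 65 to 1188 when 1 library was left out. With the replicate number as a block, calls at 24 h were 7981 and differences 644. Deviations of untreated and 24 h replicates of the same number had r of 0.000743, -0.000176 and -0.0341 within shATF4 cells. In scramble cells they had r of -0.00213, 0.0801 and 0.0337, and pairs of different number ran from -0.0702 to 0.0405. The labels do not say whether samples of the same number share anything more, and these values cannot settle it.

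Of 207 named genes, 115 kept their direction and their side of the threshold in every alternative run, and none of the 12 largest differences between lines did. These runs include the 1.5-fold test, which a change below 1.5-fold cannot pass. It called 0 differences over all genes, so it alone fixed the outcome for the 12. Leaving out single libraries lost the call of 10 of the 207 genes and of 10 of the 12 differences. The log2 changes that reversed sign belonged to genes not called at 24 h, and the cause was not tested: CHAC1 (0.02 under upper-quartile scaling, -0.185 to 0.104 over libraries left out, 0.104 without both that stood apart), TRIB3 (-0.109 to 0.0434, and 0.0387 without both), VIM (-0.134 to 0.0729, and 0.0729 without both), and, over libraries left out, EIF2AK3 (-0.149 to 0.0848), ANKRD34A (-0.381 to 0.0606), JPH3 (-0.118 to 0.288) and DNALI1 (-0.0335 to 0.242). With no filter, 51 ribosomal protein genes fell and 7 rose. Genes under 1 CPM rest on few reads, which limits the precision of their changes.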

Other observations

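Outside the protein-coding lists, 211 of 935 long intergenic RNA genes tested rose at 24 h in shATF4 cells and 99 fell, and of 1036 antisense genes 138 rose and 123 fell. Of all genes tested 23.2% were called higher and 21.2% lower. The share of long intergenic RNA genes that rose was near that of all genes, and the other shares were below it. Antisense reads may belong to the partner gene, since nothing used here states whether the counting kept strand. Of the 1856 genes called with a change of at least 2-fold, 1268 were protein-coding and 71 were also called as differing between the lines. IFI6, an interferon-stimulated mitochondrial protein, rose from 10.3, 11.6 and 12.9 to 20.4, 24.6 and 20.03 CPM (0.90 ± 0.14, edgeR adjusted p = 2.04e-05), and EPCAM, the epithelial adhesion marker of this line, fell from 534, 519.8 and 507 to 434, 425 and 425 CPM (-0.28 ± 0.06, edgeR adjusted p = 0.0011).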
